A study of Mus musculus with 3 samples.

Results

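The genes described here code for the subunits of the oxidative phosphorylation system. They were chosen by symbol alone, as the features named Ndufa, Ndufb, Ndufc, Ndufs or Ndufv with a number, Sdha to Sdhd, Uqcr, Cox4 to Cox8, Atp5, and the protein-coding genes of the mitochondrial genome. The rule found 97 of the 28001 features of the deposited tables, 84 nuclear-encoded and 13 mitochondrially encoded. Counting Ndufa4 and Ndufa4l2 with complex I by name, the nuclear members numbered 37 for complex I, 4 for complex II, 8 for complex III, 18 for complex IV and 17 for complex V. The symbol rule does not reach Cyc1 and Ndufab1. It does take in Atp5s and Atp5sl, which are not structural subunits, and Cox7a2l, a factor that joins complexes III and IV into supercomplexes.

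Single cells came from the heart of newborn ICR mice at postnatal day 2 of the genotype HCN4H2BGFP. By its name, the genotype places histone H2B fused to green fluorescent protein under HCN4, a channel of pacemaker cells. A 10x Genomics kit was used for 3 libraries, 1 for each group: cells of the sinoatrial node region sorted as GFP-positive, cells of that region sorted as GFP-negative, and an unsorted library titled RA. The title RA and the tissue label sinoatrial node region of the unsorted library disagree, so it is called RA. All 3 groups carried the same reporter and no group was treated. How many animals stood behind a library was not stated, so differences between libraries have no replicate error.

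Oxidative phosphorylation takes electrons from NADH and succinate through complexes I to IV of the inner mitochondrial membrane to oxygen, and ATP synthase, called complex V, uses the proton gradient that this builds. Most subunits are made from nuclear genes and imported, while a small core set is made from the mitochondrial genome. Heart muscle is among the tissues richest in mitochondria, and around birth it turns from sugars to fatty acids as fuel. Several complex IV subunits exist as a form found in most tissues and a form of heart and skeletal muscle, and the change from one to the other marks maturing muscle.

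The upstream sequences of such pairs are shown first, since the isoform results below concern these genes. Whether sequence and isoform share go together was not tested. Cox7a1 and Cox8b are muscle forms, Cox7a2 and Cox8a are their widespread partners, and Cox6a1 is the widespread partner of the muscle form Cox6a2. Each line gives the 250 bases before the gene's start, 5′ to 3′ on the gene's strand, in the RefSeq table of GRCm38.p6. The positions are chr7:30183921-30184170 on the plus strand, and chr9:79759854-79760103, chr7:140900447-140900696, chr19:7217617-7217866 and chr5:115348959-115349208 on the minus strand. Capitals mark the motif of nuclear respiratory factor 1 (NRF1), a regulator of many genes of the respiratory chain.
Cox7a1: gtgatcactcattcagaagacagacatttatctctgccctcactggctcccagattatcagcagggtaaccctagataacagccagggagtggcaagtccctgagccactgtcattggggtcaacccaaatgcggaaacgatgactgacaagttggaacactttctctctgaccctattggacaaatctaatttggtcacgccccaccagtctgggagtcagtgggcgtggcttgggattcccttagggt
Cox7a2: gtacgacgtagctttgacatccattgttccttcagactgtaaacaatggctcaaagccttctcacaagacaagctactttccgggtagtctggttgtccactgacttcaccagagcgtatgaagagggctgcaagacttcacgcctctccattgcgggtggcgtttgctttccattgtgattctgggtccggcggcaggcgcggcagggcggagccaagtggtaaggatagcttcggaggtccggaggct
Cox8b: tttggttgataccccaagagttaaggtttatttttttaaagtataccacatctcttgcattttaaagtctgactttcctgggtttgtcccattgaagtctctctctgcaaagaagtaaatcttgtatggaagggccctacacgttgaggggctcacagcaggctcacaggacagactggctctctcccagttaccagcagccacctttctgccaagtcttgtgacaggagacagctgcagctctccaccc
Cox8a: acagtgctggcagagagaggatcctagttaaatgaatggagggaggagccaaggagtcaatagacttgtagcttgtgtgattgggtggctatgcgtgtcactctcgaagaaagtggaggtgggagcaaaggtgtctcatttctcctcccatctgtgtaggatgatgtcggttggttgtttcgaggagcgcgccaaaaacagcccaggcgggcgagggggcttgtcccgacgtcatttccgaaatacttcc
Cox6a1: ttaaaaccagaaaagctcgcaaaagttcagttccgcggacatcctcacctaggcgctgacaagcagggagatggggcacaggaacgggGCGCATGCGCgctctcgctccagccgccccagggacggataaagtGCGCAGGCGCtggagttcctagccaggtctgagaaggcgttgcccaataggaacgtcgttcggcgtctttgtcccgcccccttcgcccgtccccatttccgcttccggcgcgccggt

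The muscle forms had fewer CpG dinucleotides in these 250 bases than their partners: 4 for Cox7a1 against 14 for Cox7a2, and 1 for Cox8b against 11 for Cox8a. Cox6a1 had 26 and the NRF1 letters at 2 places. The NRF1 motif was searched as GCGCA and GCGC separated by 1 base of any kind, on both strands of windows that ran from 250 bases before to 50 after a start. It was found in 24.0% of 75 windows of nuclear members and in 4.6% of all 32851 windows of the table. Letters of the ETS type (CCGGAAGT) were in 6.67% and 3.89% of these windows, letters of the estrogen-related receptors (TCAAGGTCA) in 2.67% and 0.423%, and letters of MEF2 (CTA and TAG separated by 4 bases of any kind) in 1.33% and 3.69%. These are matches of letters and not measured binding. Windows were found for 69 of the 84 nuclear members. Among those without one were Ndufs1, Sdhc, Cox4i2, Uqcrc2, Cox6a2, Ndufa4l2, Cox4i1, Uqcrq, Uqcrb, Cox8c, Cox6c, Ndufb9, Ndufa2 and Atp5a1.

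The libraries held 50416748, 38204709 and 19975326 unique molecular identifiers (UMIs) in 3346, 3276 and 1450 barcodes, listed as GFP-positive, then GFP-negative, then RA. Barcode sequences shared by a pair of libraries numbered 19 (both sorted libraries), 8 (GFP-positive and RA) and 9 (GFP-negative and RA). Cells were classed by the share of their UMIs on fixed marker genes and called "-like". Cardiomyocyte-like cells numbered 163, 57 and 69. All 14 cardiomyocyte markers were read in them in each library, but the same markers set the gate, so this is no separate check. In the GFP-positive library 2493 of the 3289 cells kept were endothelial-like and 489 epicardial-like. Fibroblast-like cells numbered 1344 in the GFP-negative and 397 in the RA library. Cells past the gates of 2 classes, 36, 797 and 306 in the 3 libraries, were left out. Within 0.5 to 2 times the cardiomyocyte gate lay 6, 7 and 3 cells. Other gates had more cells near them. In the same range lay 28, 527 and 216 cells for the mural, 502, 603 and 138 for the fibroblast and 526, 106 and 120 for the endothelial gate.

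Nuclear-encoded members took a like share of RNA in the cardiomyocyte-like cells of the 3 libraries, about 4 times that of endothelial-like cells. Levels of nuclear members are given as UMIs per 1000000 UMIs of the class (CPM), counted without mitochondrially encoded and haemoglobin UMIs. Summed over the nuclear members, cardiomyocyte-like cells were at 108124 (95% exact Poisson interval 107744 to 108506) in the GFP-positive library. The sum was 106374 (105613 to 107140) in the GFP-negative and 108239 (107549 to 108933) in the RA library, so between 10.6% and 10.8% of these UMIs were theirs. All intervals cover counting error only, since UMIs of 1 library do not show how animals differ.

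Endothelial-like cells, the lining of vessels and chambers, had 26619, 28118 and 28373 CPM in the same order of libraries. Cardiomyocyte-like cells were 4.06-fold, 3.78-fold and 3.81-fold above them. Epicardial-like cells of the GFP-positive library were at 26412. Fibroblast-like cells had 22482 (GFP-negative) and 23957 (RA), and macrophage-like cells 22394 and 23646. Mural-like cells, the smooth muscle cells and pericytes of vessel walls, came next below cardiomyocyte-like cells with 35677 in the GFP-negative library, and with 44340 in the RA library, where they numbered only 46. The sums of all other classes lay between 21993 and 31904.

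Mitochondrially encoded members differed more between the libraries. Their share of all UMIs in cardiomyocyte-like cells was 12.1%, 8.89% and 7.71% in the GFP-positive, GFP-negative and RA library. In endothelial-like cells it was 3.26%, 3.17% and 2.88%, and in fibroblast-like cells 2.42% in the GFP-negative and 1.99% in the RA library. The cardiomyocyte-like share was above the endothelial-like share by 3.71-fold, 2.81-fold and 2.68-fold. Erythroid-like cells, whose UMIs were 90.1% and 89.4% haemoglobin, had 0.338% and 0.312% of all UMIs on mitochondrial genes in the GFP-negative and RA library. Haemoglobin UMIs lower this share. Per UMI of nuclear members they had 1.28 and 0.954 mitochondrially encoded UMIs, against 1.17 and 1.05 in the endothelial-like cells of these libraries.

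**Figure D1:**
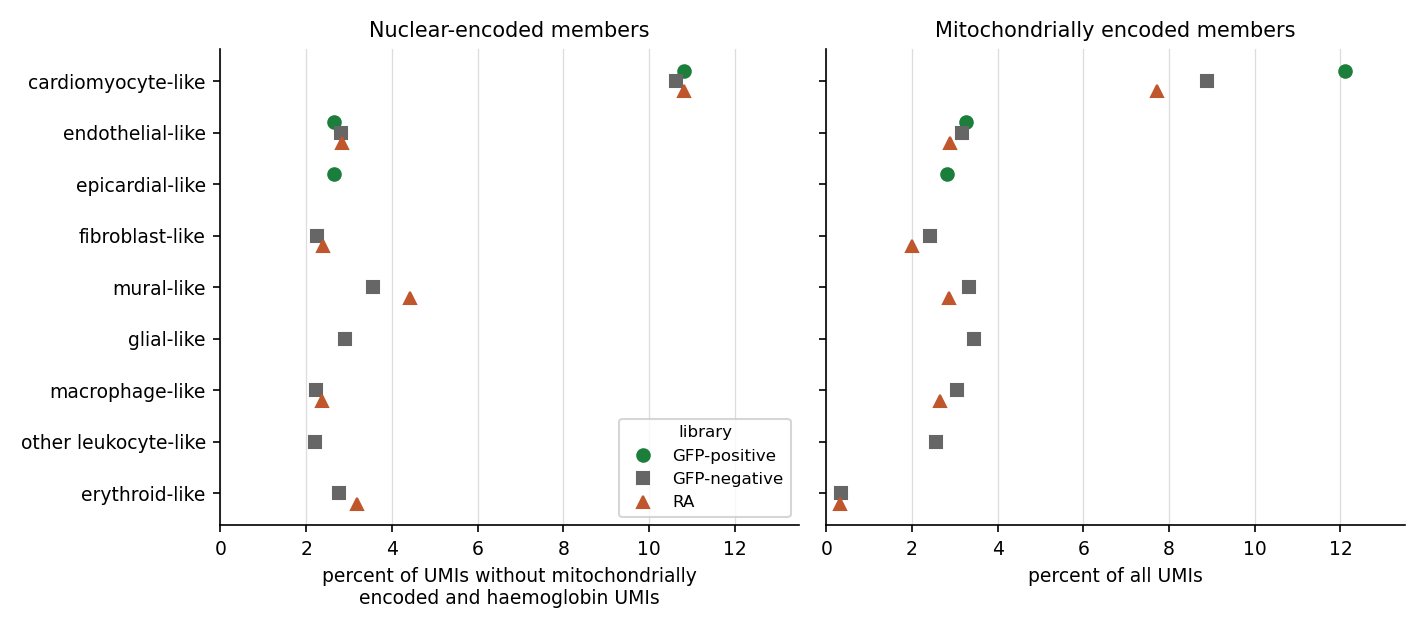
Share of UMIs on nuclear-encoded members (left, percent of UMIs without mitochondrially encoded and haemoglobin UMIs) and on mitochondrially encoded members (right, percent of all UMIs), by class and library, 1 point per library. Cardiomyocyte-like cells lie between 10.6% and 10.8% on the left in all 3 libraries and spread from 7.71% to 12.1% on the right; the mural-like point of the RA library rests on 46 cells.

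The split of nuclear UMIs over the complexes was alike in the classes. In cardiomyocyte-like cells of the GFP-positive library 28.7% of nuclear member UMIs were of complex I, 1.55% of complex II, 12.1% of complex III, 28.5% of complex IV and 29.1% of complex V. Endothelial-like cells of that library had 31.1%, 1.79%, 11.7%, 27.4% and 27.9%. Complex V took 31.6% in the cardiomyocyte-like cells of the GFP-negative and 30.9% in those of the RA library. By UMIs, which are not scaled to transcript length, the members with most reads in cardiomyocyte-like cells of the GFP-positive library were Ndufa4 (3366 CPM), Sdhb (559), Uqcrh (2601), Cox4i1 (4292) and Atp5b (3754). Ndufa4 was first assigned to complex I and later found with complex IV, Sdhb is the iron-sulfur subunit of complex II, Uqcrh the hinge subunit of complex III, Cox4i1 the common form of subunit 4 of complex IV and Atp5b the catalytic beta subunit.

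The lower mitochondrial share of the GFP-negative and RA cardiomyocyte-like cells came with barcodes that had almost no mitochondrial UMIs. Under 1% mitochondrial UMIs were 21 of 57 cardiomyocyte-like barcodes (36.8%, exact Clopper-Pearson interval 24.4% to 50.7%) of the GFP-negative library, 31 of 69 (44.9%, 32.9% to 57.4%) of the RA library and 1 of 163 (0.613%) of the GFP-positive library. In those 21 and 31 barcodes the median share was 0.279% and 0.340%, and the highest 0.841% and 0.703%. In the others the median was 9.69% and 9.21%, and the lowest 1.24% and 1.28%. Of the endothelial-like barcodes 0 of 196 were under 1% in the GFP-negative library, which allows a share of up to 1.53% by the limit of 3 counts of the total (the exact interval reaches 1.86%), and 6 of 264 in the RA library.

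The barcodes under 1% had no lower level of the nuclear members. Their summed level was 114753 CPM against 104129 in the other cardiomyocyte-like barcodes of the GFP-negative library, and 110737 against 107193 in the RA library. Other transcripts, namely Malat1, Ttn and Myh6, were lower in them. Malat1, a long noncoding RNA kept in the nucleus, was at 2635 against 9853 CPM in the GFP-negative and at 1177 against 13653 in the RA library. The GFP-negative sum of 2635 leaned on 1 barcode of 7653 UMIs that held 277 Malat1 UMIs. As cell medians per 10000 UMIs, Malat1 was at 6.57 against 68.5 in the GFP-negative and at 7.70 against 90.9 in the RA library. Ttn, the giant sarcomere protein titin, was at 20.2 against 1118 and at 46.8 against 1142, and Myh6, the alpha myosin heavy chain, at 599.8 against 5574 and at 943 against 4786. Tnnt2, cardiac troponin T, was higher in them, at 12070 against 8910 and at 11298 against 8868. These barcodes were also shallower, with a median of 5159 and 7209 UMIs against 17528.5 and 18971. Their part in the results was not tested beyond leaving them out. Without them the mitochondrial share of cardiomyocyte-like cells was 12.1%, 10.9% and 10.5% in the GFP-positive, GFP-negative and RA library. Barcodes over 20% mitochondrial UMIs, which numbered 13, 5 and 8 in the same order, stayed in. Their part in these shares was not tested.

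**Figure D2:**
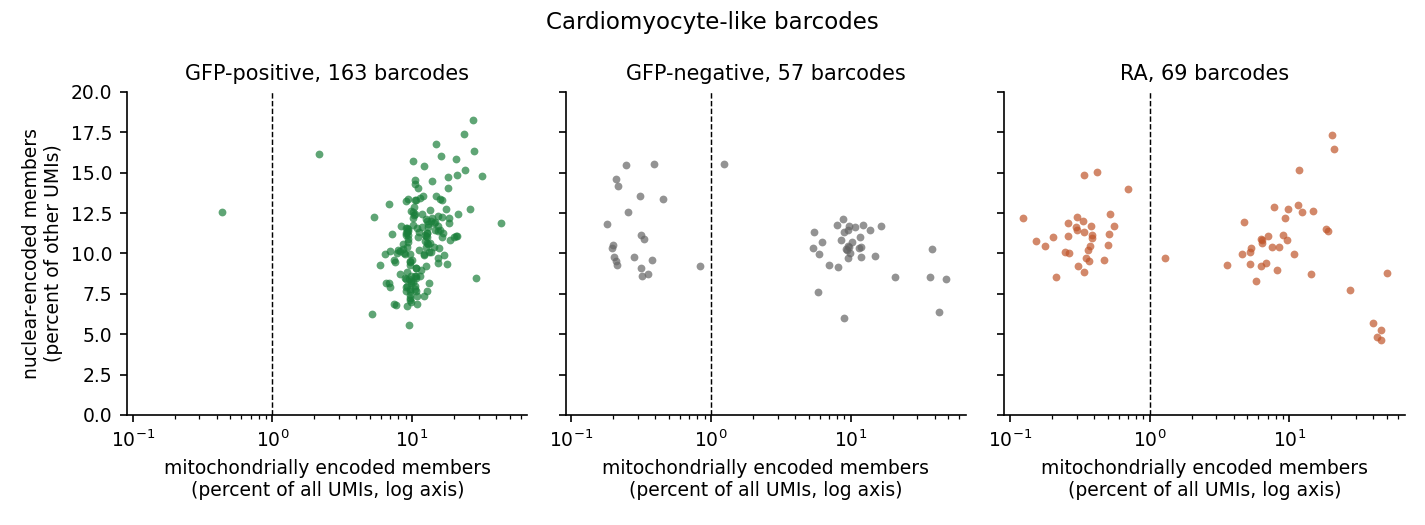
Each point is 1 cardiomyocyte-like barcode, with its mitochondrially encoded UMIs as percent of all UMIs (log axis) against its nuclear-encoded member UMIs as percent of the remaining UMIs; the dashed line stands at 1%. The GFP-positive library has 1 barcode left of the line, the GFP-negative library 21 and the RA library 31, at nuclear shares like those to the right.

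Class sums were then compared over the 3 libraries with edgeR's quasi-likelihood test, with the library as a block. A gene was called at a Benjamini-Hochberg adjusted p under 0.05 over all 13440 genes tested, of which 24.1% were called higher and 24.3% lower in cardiomyocyte-like than in endothelial-like cells. Of the 97 members 95 passed the filter on low sums. Of these, 91 were higher in cardiomyocyte-like cells, 79 nuclear-encoded and 12 mitochondrially encoded, and 0 were lower. DESeq2 also called 91 higher and 0 lower, and 92 of the 95 had an unadjusted p under 0.05. The median log2 fold change was 2.08 over the nuclear members and 1.80 over the mitochondrially encoded members, against -0.05 over all genes tested. By complex the median over nuclear members was 2.05 for complex I, 1.99 for II, 2.29 for III, 2.32 for IV and 2.15 for V. With the barcodes under 1% mitochondrial UMIs left out, the medians were 1.99 over all nuclear and 1.99 over mitochondrially encoded members.

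Complex IV held the largest fold changes. Cox6a2 was at 2297, 1947 and 2176 CPM in the cardiomyocyte-like cells of the GFP-positive, GFP-negative and RA library and at 12.0, 2.41 and 9.66 in endothelial-like cells. Its log2 fold change in edgeR's quasi-likelihood test was 8.17 (SE 0.38, 287-fold, adjusted p = 1.49e-08). Cox8b was at 665.8, 836 and 864 against 2.86, 0.964 and 4.67, with a log2 fold change of 8.09 (SE 0.25). Cox7a1 was at 686, 709 and 842 against 4.31, 1.93 and 3.43, with a log2 fold change of 7.76 (SE 0.33). All 3 are muscle forms, and for each of them the 2 classes were far apart in every library.

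The traces in endothelial-like cells went with traces of other muscle transcripts. Myl7, the atrial myosin light chain, was at 30799 CPM in the cardiomyocyte-like and at 223 in the endothelial-like cells of the GFP-positive library. With every cell thinned to 2000 UMIs, Cox6a2 had a UMI in 94.5% of 163 cardiomyocyte-like and in 2.45% of 2493 endothelial-like cells of that library. Unthinned, at median depths of 19019 and 11458 UMIs, the shares were 100% and 15.4%. RNA free in the suspension can give such low shares, and its part was not tested.

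Below these, the ATP synthase gene Atp5g1, one of 3 genes for the same mature c subunit of the membrane ring, had a log2 fold change of 3.16 (SE 0.10, 8.97-fold, adjusted p = 1.93e-09 in edgeR's quasi-likelihood test). Apart from isoform sets, the largest were Cox5a (7.86-fold), a complex IV subunit on the matrix side, and Atp5o (7.22-fold), the stalk subunit OSCP. They were followed by Ndufa11 (6.95-fold), Ndufs1 (6.62-fold), Atp5k (6.61-fold), Ndufv3 (6.29-fold), Uqcr11 (6.24-fold) and Ndufa5 (6.22-fold). Ndufs1 is the largest iron-sulfur subunit of complex I, Atp5k a membrane subunit of ATP synthase and Uqcr11 a small subunit of complex III. Among nuclear members outside the isoform sets the smallest called folds were 2.32-fold for Ndufa8, 2.42-fold for Ndufa7, 2.47-fold for Atp5sl, 2.56-fold for Ndufs8, 2.61-fold for Ndufa6, 2.68-fold for Ndufb3, 2.70-fold for Ndufc2 and 2.74-fold for Atp5s. All but Atp5s and Atp5sl are complex I subunits. Within the isoform sets the smallest called fold was 1.87-fold, for Cox6a1.

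The members that were not called were Cox7a2l (log2 fold change 0.12, adjusted p = 0.400), Cox6b2 (0.66, adjusted p = 0.0679), Ndufa4l2 (-0.01, adjusted p = 0.982) and mt-Nd6 (-0.13, adjusted p = 0.778) in edgeR's quasi-likelihood test. Cox7a2l was at 882, 873 and 813 CPM in cardiomyocyte-like and at 853, 945 and 859 in endothelial-like cells. Its levels in the 2 classes overlapped. Without the GFP-positive library Cox6b2 was called higher (log2 fold change 1.13, adjusted p = 0.0118).

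Sums of fibroblast-like cells came from the GFP-negative and RA library only, but the fit held all 12 sums. Sums of the GFP-positive library thus also entered this contrast. Against fibroblast-like cells 18.8% of the 13440 genes were called higher and 23.1% lower. Of the 95 members 92 were higher in cardiomyocyte-like cells and 2 lower, and DESeq2 gave the same counts. The median log2 fold change was 2.19 over nuclear and 2.08 over mitochondrially encoded members, and -0.15 over all genes. Cox6a2 (log2 fold change 8.42), Cox8b (7.83) and Cox7a1 (7.17) led again. Outside the isoform sets came Cox5a (10.2-fold), Uqcr11 (7.45-fold), Ndufs1 (6.88-fold), Uqcrfs1 (6.62-fold), Ndufa11 (6.57-fold), Atp5b (6.57-fold), Atp5o (6.52-fold) and Uqcrq (6.46-fold). Uqcrfs1 is the Rieske iron-sulfur protein of complex III. Among nuclear members outside the isoform sets the smallest called folds were 1.91-fold for Cox7a2l and then ran from 2.32-fold for Ndufa7 through Ndufc2, Ndufa2, Ndufb3, Ndufs5, Atp5e and Ndufa3 to 3.12-fold for Ndufa13. The 2 lower members were Ndufa4l2 and Cox4i2, and Cox6b2 was not called (log2 fold change -0.58, adjusted p = 0.138 in edgeR's quasi-likelihood test). Without the GFP-negative library Atp5s was no longer called (adjusted p = 0.0784). Without the barcodes under 1% mitochondrial UMIs Cox6b2 was called lower (log2 fold change -1.35, adjusted p = 0.0142). With those barcodes left out, the median log2 fold change was 2.14 over nuclear and 2.38 over mitochondrially encoded members, the reverse order. Both contrasts use the same cardiomyocyte-like sums, so they are not independent of each other.

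**Figure D3:**
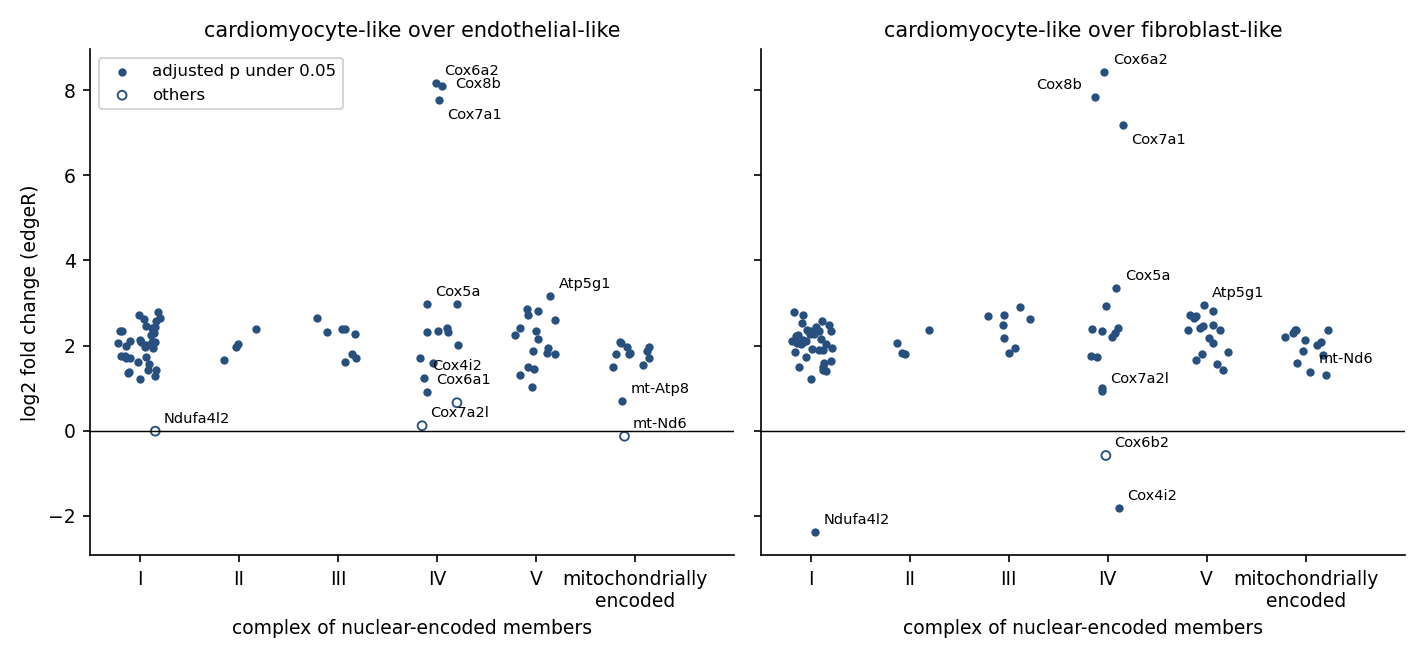
log2 fold change of each of the 95 tested members in edgeR, by complex for nuclear-encoded members and apart for mitochondrially encoded ones; filled points have an adjusted p under 0.05. Cox6a2, Cox8b and Cox7a1 stand above 7 in both panels, and most members lie near 2.

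The share of each isoform within its set compares transcripts without a scale of total RNA. The shares are between-class comparisons, since UMIs of different genes can be caught with different efficiency. Cox6a2 made up 71.3% (exact Clopper-Pearson interval 70.4% to 72.2%), 69.5% (67.4% to 71.5%) and 70.7% (68.9% to 72.4%) of Cox6a1 and Cox6a2 UMIs in cardiomyocyte-like cells of the GFP-positive, GFP-negative and RA library. In endothelial-like cells it was 2.19%, 0.436% and 1.80%. The widespread form Cox6a1 was itself 1.87-fold higher in cardiomyocyte-like cells, at 925, 856 and 903 CPM against 535, 551 and 526. So both forms rose, the muscle form far more.

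The muscle forms Cox7a1 and Cox8b of complex IV also took larger shares of their sets in cardiomyocyte-like than in endothelial-like cells. Cox7a1 was 21.7%, 25.2% and 28.2% of Cox7a1 and Cox7a2 UMIs in cardiomyocyte-like cells, and 0.805%, 0.389% and 0.709% in endothelial-like cells. Cox7a2 was 4.998-fold higher in cardiomyocyte-like cells, at 2481, 2104 and 2143 against 532, 494 and 479.7 CPM. Cox8b was 21.4%, 27.1% and 28.3% of the Cox8 UMIs in cardiomyocyte-like cells against 0.388%, 0.110% and 0.612%. Its partner Cox8a was 3.26-fold higher. Cox8c, a form of testis, had 0 UMIs in every class, which by the limit of 3 counts of the total allows a share of up to 0.0337% of 8899 Cox8 UMIs in the cardiomyocyte-like cells of the GFP-positive library.

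Shares of Cox7a1 and Cox8b were lower in the GFP-positive library than in the RA library, and their intervals did not overlap (20.8% to 22.5% against 26.5% to 29.98% for Cox7a1, and 20.6% to 22.3% against 26.6% to 30.02% for Cox8b). The barcodes under 1% mitochondrial UMIs moved with this. In the RA library Cox7a1 was 37.96% of its pair in them and 24.1% in the rest, Cox8b 34.1% and 25.7%, and Cox6a2 82.02% and 67.6%. In the GFP-negative library the values were 33.0% and 23.1% for Cox7a1, 40.0% and 23.4% for Cox8b, and 82.1% and 67.4% for Cox6a2. Cox4i1 was lower in these barcodes, at 2709 against 3956 CPM in the GFP-negative and at 2565 against 4006 in the RA library. The level of Cox6a2 was lower as well, at 1550 against 2054 and at 1832 against 2320, although its share was higher. In the remaining RA barcodes the Cox7a1 interval (22.2% to 26.2%) overlapped that of the GFP-positive library, and the Cox8b interval (23.7% to 27.8%) did not. The Cox6a2 share, alike in the 3 libraries over all barcodes, differed in the remaining ones. Its intervals there were 65.1% to 69.6% (GFP-negative) and 65.5% to 69.6% (RA), below the 70.4% to 72.2% of the GFP-positive library.

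The 3 Atp5g genes code for the same mature protein and differ in their targeting peptides. Atp5g1 was 52.2%, 50.5% and 48.0% of their UMIs in cardiomyocyte-like cells, and 27.7%, 26.2% and 27.5% in endothelial-like cells. Atp5g2 was the reverse, with 21.4%, 23.1% and 23.1% against 53.5%, 56.0% and 52.2%. Atp5g3 was 26.4%, 26.5% and 28.9% against 18.7%, 17.8% and 20.3%. Fibroblast-like cells lay between, with Atp5g1 at 33.9% in the GFP-negative and 34.6% in the RA library. All 3 genes were higher in cardiomyocyte-like cells, by 8.97-fold for Atp5g1, 6.97-fold for Atp5g3 and 2.02-fold for Atp5g2.

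**Figure D4:**
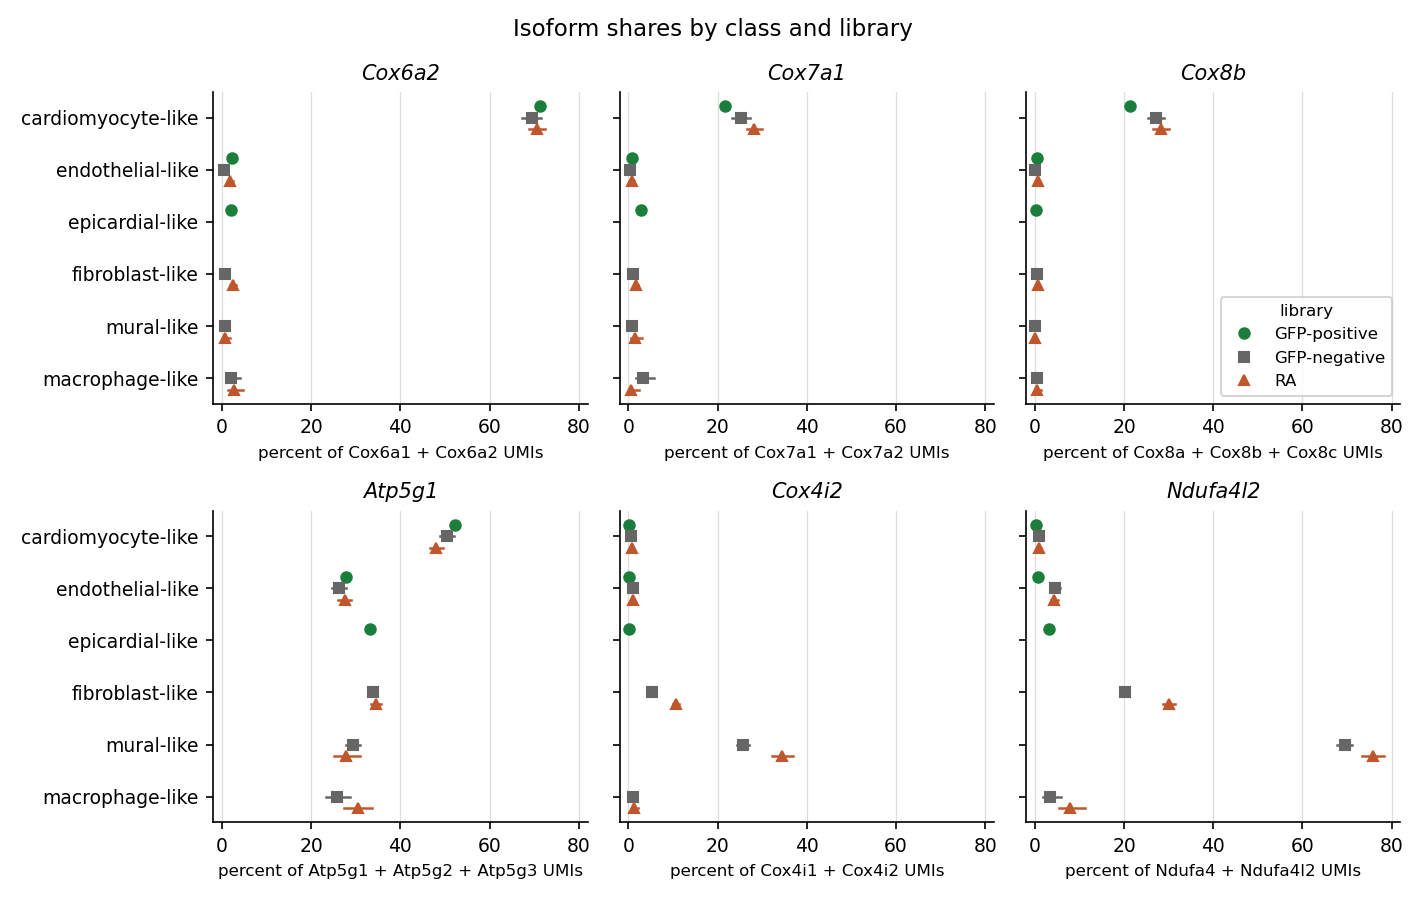
Share of 1 isoform in the UMIs of its set, in percent, by class (rows) and library (symbols), with exact Clopper-Pearson intervals as horizontal bars, many of them narrower than the symbol. Cox6a2 stands near 70% and Cox7a1 and Cox8b between 21.4% and 28.3% in cardiomyocyte-like cells and near 0 in the other classes plotted; Ndufa4l2 (69.5% and 75.9%) and Cox4i2 (25.7% and 34.5%) are highest in mural-like cells.

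Mural-like cells carried the alternative forms Ndufa4l2 and Cox4i2. Ndufa4l2, a target of hypoxia-inducible factor, was 69.5% (67.9% to 71.1%) of Ndufa4 and Ndufa4l2 UMIs in mural-like cells of the GFP-negative library and 75.9% (73.5% to 78.3%) in the 46 of the RA library. Its share was 0.269%, 0.939% and 0.917% in cardiomyocyte-like, and 20.2% and 30.1% in fibroblast-like cells. Its level was 1143 and 1729 CPM in mural-like cells, and the next were erythroid-like cells of the RA library at 285 CPM. Cox4i2, the form of subunit 4 known from lung and pulmonary artery smooth muscle, was 25.7% and 34.5% of the Cox4i UMIs in mural-like cells. It was 5.29% and 10.6% in fibroblast-like cells and at most 0.733% in cardiomyocyte-like cells.

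The share of cells with these transcripts showed the same order. In cells thinned to 2000 UMIs, Ndufa4l2 had a UMI in 61.1% of the 198 mural-like cells of the GFP-negative library, 14.4% of 1344 fibroblast-like and 2.02% of 99 macrophage-like cells. Unthinned, at median depths of 9438, 11580 and 9004 UMIs, the shares were 74.2%, 43.2% and 12.1%. Cox4i2 had a UMI in 50.5%, 9.75% and 3.03% of the same thinned cells. Against fibroblast-like cells, Ndufa4l2 had a log2 fold change of -2.39 (SE 0.29, adjusted p = 4.35e-05) and Cox4i2 of -1.83 (SE 0.31, adjusted p = 0.00061) in edgeR's quasi-likelihood test. The Cox4i2 call ended without the RA library (adjusted p = 0.0721) and without the barcodes under 1% mitochondrial UMIs (adjusted p = 0.166).

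Against endothelial-like cells Cox4i2 was called higher in cardiomyocyte-like cells (2.35-fold, adjusted p = 0.00753 in edgeR's quasi-likelihood test), from low levels of 8.73, 17.1 and 26.5 against 2.39, 15.9 and 13.4 CPM. The call ended without the GFP-positive library (adjusted p = 0.103). Cardiomyocyte-like cells of the GFP-negative and RA library also carried more mural and fibroblast marker UMIs than those of the GFP-positive library. Per 10000 UMIs the cell median was 4.30, 2.67 and 0.521 for the 10 mural markers and 17.7, 14.7 and 2.76 for the 10 fibroblast markers, in the order GFP-negative, RA, GFP-positive. The part of this RNA in the levels of Cox4i2 and Ndufa4l2 was not tested.

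Cox6b2, a form of testis, was highest in classes other than muscle. It was at 236 and 271 CPM in erythroid-like cells of the GFP-negative and RA library, where it was 28.8% and 31.4% of Cox6b UMIs. These rest on 38 UMIs in each library. In epicardial-like cells it was at 93.9 CPM and 12.7% (11.9% to 13.6%) of Cox6b UMIs, with 794 UMIs. Cardiomyocyte-like cells had 0.523%, 1.21% and 0.722%. Cox6b1, the common form, was 4.07-fold higher in cardiomyocyte-like than in endothelial-like cells. Cox7b2 had 6 UMIs in all cardiomyocyte-like cells of the GFP-positive library and 0 in those of the others, while its partner Cox7b was 7.82-fold higher in cardiomyocyte-like than in endothelial-like cells. Some members have near-identical copies elsewhere in the genome, and reads of the mitochondrial genes can also match nuclear copies; how the counting treated those was not given in the sources used here.

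Of the 13 mitochondrially encoded members 12 were higher in cardiomyocyte-like than in endothelial-like cells. mt-Cytb of complex III was at 13642, 10403 and 9041 CPM of all UMIs in cardiomyocyte-like and at 3098, 3138 and 2944 in endothelial-like cells, a 4.27-fold difference. For complex I, mt-Nd4 was 4.19-fold, mt-Nd2 3.88-fold, mt-Nd4l 3.52-fold, mt-Nd1 3.49-fold, mt-Nd3 2.92-fold and mt-Nd5 2.83-fold higher. For complex IV, mt-Co1 was 3.91-fold, mt-Co2 3.48-fold and mt-Co3 3.25-fold higher. For complex V, mt-Atp6 was 3.63-fold and mt-Atp8 1.62-fold higher, and the mt-Atp8 call ended without the GFP-negative library (adjusted p = 0.0581 in edgeR's quasi-likelihood test). mt-Nd6 had 37, 6 and 23 UMIs in cardiomyocyte-like cells. It lies on the opposite strand to mt-Nd5, and whether the counting used strand was not given in the sources used here. Against fibroblast-like cells all 13 were called higher, mt-Nd6 among them (2.61-fold, adjusted p = 0.0177), and that call ended without the RA library (adjusted p = 0.276), without the barcodes under 1% mitochondrial UMIs (adjusted p = 0.0624) and with a gate 2 times as strict (adjusted p = 0.0586).

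The pathways that feed the respiratory chain were counted by lists. For comparison, 24.1% of all 13440 genes tested were called higher and 24.3% lower against endothelial-like cells. Against endothelial-like cells, all 13 genes of the tricarboxylic acid cycle were higher in cardiomyocyte-like cells, among them Idh3a (12.3-fold), a subunit of isocitrate dehydrogenase, and their median log2 fold change was 2.19. Of 13 tested genes of fatty acid oxidation 12 were higher, among them the long-chain dehydrogenase Acadl (12.4-fold) and the carnitine palmitoyltransferase Cpt2 (6.73-fold). The list had 14 genes, and Cpt1b was not among those tested. Cpt1a, the liver form of the outer membrane transferase, was not called (log2 fold change -0.33, adjusted p = 0.293 in edgeR's quasi-likelihood test). Glycolysis had 16 of 17 genes higher and 1 lower. The muscle forms Pgam2 (189-fold) and Eno3 (186-fold) led, and Pfkl, the liver phosphofructokinase, was lower (0.731-fold).

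Of 12 genes of energy transfer and carriers 11 were higher, with the creatine kinases Ckm (164-fold) and Ckmt2 (162-fold) in front, and the uncoupling protein gene Ucp2 was lower (0.628-fold). Of 11 tested regulators of mitochondrial biogenesis 9 were higher, led by the coactivator Ppargc1a (46.8-fold) and its muscle target Perm1 (33.2-fold). This list had 12 genes, and Esrrb was not tested. Gabpa and Nrf1 were not called, with log2 fold changes of 0.38 and -0.61. Assembly factors, which build the complexes without staying in them, had 22 of 30 tested genes higher and 0 lower (31 listed, Cox15 not tested). They were led by Ndufaf5 (6.27-fold) and Ecsit (4.27-fold), at a median log2 fold change of 1.07, below that of the subunits. Against fibroblast-like cells the counts higher and lower were 13 and 0 for the cycle, 12 and 1 for fatty acid oxidation, and 16 and 0 for glycolysis. They were 12 and 0 for energy transfer, 7 and 0 for regulators, and 21 and 1 for assembly factors. Over all 13440 genes tested, 24.1% were called higher and 24.3% lower against endothelial-like cells, and 18.8% and 23.1% against fibroblast-like cells.

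Between libraries, the nuclear members of cardiomyocyte-like cells differed little. With 1 library per group there is no test, and a member was counted past the fold when its log2 ratio exceeded 0.58 (about 1.5-fold) and its interval left out 0. Of 82 measured nuclear members, 0 were higher and 2 lower in the GFP-positive than in the RA library, beside 17.6% of 11171 genes higher and 5.22% lower. The median log2 ratio was -0.06 against 0.21 over all genes. The 2 were Cox4i2, at 8.73 against 26.5 CPM from 25 and 23 UMIs, and Ndufa4l2, at 9.08 against 25.3 from 26 and 22 UMIs. Against the GFP-negative library 0 were higher and 2 lower, Ndufa4l2 (24.2 there) and Cox6b2 (12.9 against 28.5), beside 12.5% and 3.84% of 11084 genes. The GFP-negative and RA libraries had 0 past the fold in either direction, beside 3.84% and 2.78% of 8626 genes.

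The mitochondrially encoded members differed between libraries over all barcodes, and most of these differences were not past the fold without the barcodes under 1% mitochondrial UMIs. On the scale of all UMIs 8 of the 13 were past the fold higher in the GFP-positive than in the RA library and 1 lower, beside 15.7% of 11187 genes higher and 6.41% lower. The 8 were led by mt-Nd2 (3733 against 1874 CPM), mt-Nd4 (8778 against 4812) and mt-Co1 (19790 against 11740), and the lower one was mt-Nd6. Without the barcodes under 1%, 0 were higher and 2 lower, mt-Nd6 (11.4 against 32.0 CPM) and mt-Atp8 (132 against 198), while mt-Nd2 was at 3745 against 2553 and mt-Nd4 at 8804 against 6559. With no limit on mitochondrial UMIs 1 was higher and 2 lower. Against the GFP-negative library 3 of the 13 were past the fold higher, mt-Nd4l, mt-Nd5 and mt-Nd4, and 0 lower, beside 11.1% of 11100 genes higher and 4.34% lower. Without the barcodes under 1%, 0 were past the fold in either direction, with mt-Nd4l at 442 against 311 CPM and mt-Nd5 at 727 against 540. The GFP-negative library had 0 higher and 2 lower than the RA library, mt-Nd4l and mt-Nd6, beside 3.38% of 8642 genes higher and 2.93% lower. Both were also lower without those barcodes, mt-Nd4l at 311 against 578 CPM and mt-Nd6 from 6 and 22 UMIs.

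Cardiomyocyte-like cells of the GFP-positive library were split by marker UMIs into 37 His-bundle-like cells (Pvalb, Myl2 and others), 18 Nppa-gated cells, 16 cells with UMIs of Tbx18 or Isl1, 73 other node-like cells, 17 with none of these and 2 with both Nppa and His-bundle markers. The Tbx18/Isl1-gated cells rest on 2 markers and are given no cell type name. Summed nuclear member levels were 99832 CPM in other node-like, 104224 in Nppa-gated, 107996 in His-bundle-like and 118411 in unmarked cells. They were 136250 (134978 to 137531) in Tbx18/Isl1-gated cells, 1.36-fold the level of other node-like cells. Neighbours in this order differed beyond counting error, but the single cells overlapped. Cell by cell, nuclear members took 8.50% to 17.4% (median 13.3%) in Tbx18/Isl1-gated and 5.56% to 14.6% (median 9.57%) in other node-like cells.

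Set against other node-like cells, 15 of 82 nuclear members were past the fold higher and 0 lower in Tbx18/Isl1-gated cells, beside 3.33% of 9457 genes higher and 7.32% lower. The median log2 ratio over the members was 0.44, and -0.14 over all genes. Highest were Ndufa5 (1538 against 832 CPM), Ndufb7 (1100 against 616), the flavoprotein Sdha (516 against 299), Atp5g1 (4459 against 2683) and Uqcr11 (3605 against 2194). The others were Atp5k, Ndufs1, Cox8b, Uqcrc1, Ndufs7, Uqcrq, Ndufb10, Cox6a1, Atp5a1 and Ndufb5, at 1.51-fold to 1.62-fold, so every nuclear complex was represented. Of the 13 mitochondrially encoded members 1 was past the fold higher, mt-Nd1 (18234 against 11174 CPM of all UMIs), and 0 lower, beside 2.69% of 9472 genes higher and 9.02% lower on that scale, and their summed share was 16.1% against 11.5%. Of 13 fatty acid oxidation genes 7 were past the fold higher. The other lists had fewer. The counts were 1 of 13 for the tricarboxylic acid cycle, 2 of 17 for glycolysis (1 lower) and 1 of 8 for regulators. They were 3 of 12 for energy transfer and 2 of 30 for assembly factors. These 16 cells were deeper, with a median of 24470 UMIs against 18784. After thinning to 2000 UMIs the count of nuclear members stayed within its limits. The count of mitochondrially encoded members moved, as given in the closing section. Beyond this thinning the part of depth was not tested. With the subtype minimum doubled, 9 nuclear and 4 mitochondrially encoded members were past the fold higher.

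His-bundle-like cells had 0 of 82 nuclear members past the fold in either direction, beside 4.85% higher and 5.68% lower of 9788 genes. Their median log2 ratio to other node-like cells was 0.14, and -0.02 over all genes. Nppa-gated cells had 0 past the fold as well, beside 2.43% and 5.67% of 9530 genes, with a median of 0.07 against -0.09. Of the mitochondrially encoded members 0 were past the fold in His-bundle-like cells, beside 5.04% higher and 5.65% lower of 9803 genes on the scale of all UMIs. In Nppa-gated cells mt-Atp8 was past the fold higher (204 against 130.0 CPM, from 82 and 189 UMIs), beside 2.44% higher and 5.66% lower of 9545 genes, and 0 were higher after thinning to 2000 UMIs. How far isoform shares differed between the subtypes depended on the set. Cox6a2 was 78.0% (76.0% to 80.0%) of its pair in His-bundle-like, 75.1% (72.4% to 77.7%) in Nppa-gated, 70.6% (69.2% to 72.0%) in other node-like and 63.3% (60.5% to 66.0%) in Tbx18/Isl1-gated cells. In the last group Cox6a2 was at 2393 CPM against 2168 in other node-like cells, while Cox6a1 was at 1389 against 902. Atp5g1 was 46.5% (44.6% to 48.3%) of Atp5g UMIs in His-bundle-like, 49.97% in other node-like, 54.9% in Nppa-gated and 59.97% (57.97% to 61.9%) in Tbx18/Isl1-gated cells. Cox7a1 was 23.5% (21.5% to 25.7%) of its pair in His-bundle-like, 21.3% in other node-like, 20.3% in Nppa-gated and 18.5% (16.4% to 20.8%) in Tbx18/Isl1-gated cells. Cox8b shares lay between 19.1% and 22.7% in these 4 groups. In the GFP-negative and RA library 43 of 57 and 59 of 69 cardiomyocyte-like cells were Nppa-gated. Their summed nuclear level was 103736 (102880 to 104598) and 108735 (107971 to 109503) CPM, and that of the GFP-positive library 104224 (103166 to 105289). Only the RA value lay apart from the others.

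**Figure D5:**
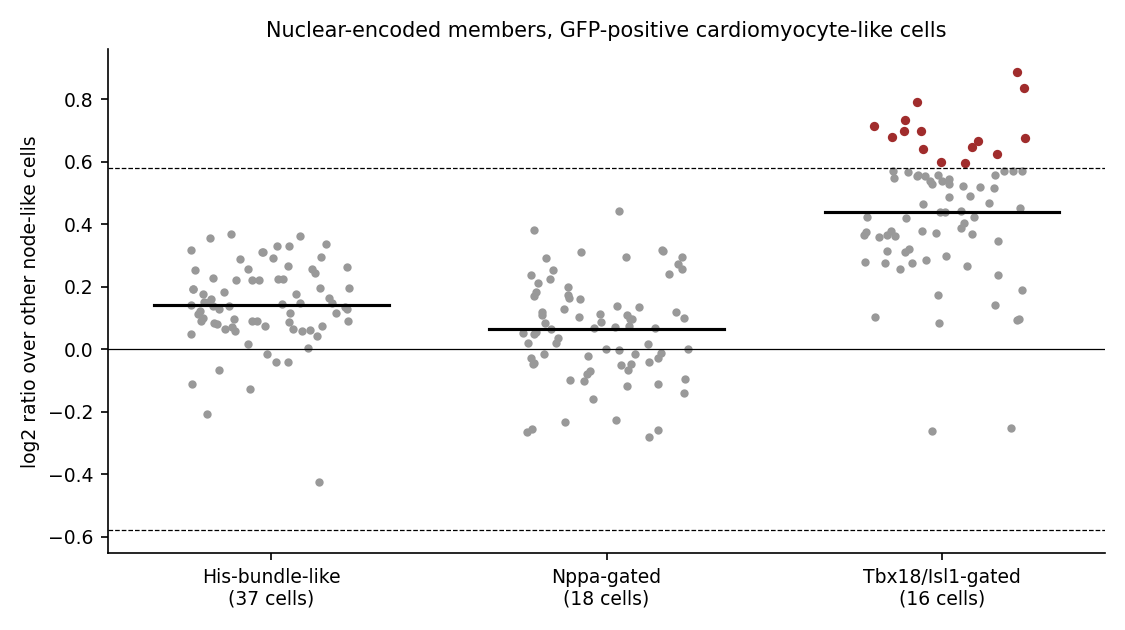
log2 ratio of nuclear-encoded members over other node-like cells of the GFP-positive library, 1 point per member with at least 100 UMIs (77 in each column); bars are medians over all 82 measured members, dashed lines the fold of 0.58, red points those past it. In the Tbx18/Isl1-gated column 15 points are red and the bar stands at 0.44; the other columns have 0 red points and bars at 0.14 and 0.07.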

How the data were processed

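The authors deposited UMI counts per gene and barcode for 3 libraries, made with Cell Ranger and mm9 per the submitters' processing notes, and every value was a whole number. Aligner settings were not given in the sources used here. Barcodes under 500 genes or over 50% mitochondrial UMIs were dropped, and no doublet caller was run. Classes needed at least 3 markers read and, per 10000 UMIs of a cell, at least 50 (cardiomyocyte), 20 (endothelial), 100 (fibroblast), 30 (mural), 20 (epicardial, glial, macrophage), 10 (other leukocyte) or 1600 (erythroid) marker UMIs. These minimums were set after the marker shares were seen. Subtypes were gated in order at 10 (Nppa set), 20 with 3 markers (His-bundle set), 1 (Tbx18, Isl1) and 2 (node set). Sums per class and library of at least 50 cells entered edgeR 4.0.16 (quasi-likelihood test, TMM, filterByExpr, library as block, 12 sums, Benjamini-Hochberg over all genes); a class contrast thus measures the spread between 3 libraries of different sorting, whose animals are not stated. DESeq2 1.42.0 was an alternative. Residual degrees of freedom were 4. Each SE was computed from the test, as the size of the log2 fold change over the square root of its F statistic. Ratios between single sums had 0.5 UMIs added and needed 10 UMIs. Intervals are 95% exact Poisson, Clopper-Pearson or conditional binomial. The edgeR step was tested on simulated data. Promoter sequences came from a RefSeq table of GRCm38.p6, a build other than that of the files. Members and lists were chosen with earlier results of these data known. Named are all isoform sets and mitochondrially encoded members, the 8 highest and 8 lowest other members called, the 5 highest and lowest past the fold, the member with most UMIs per complex, and 2 genes per list and direction. Some items that this rule would name are not reported here.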

Additional observations from a re-analysis of the deposited data

Results flagged for a closer look

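Of the 95 members tested, 2 differed in sign between libraries when cardiomyocyte-like were set against endothelial-like cells. Ndufa4l2 had log2 fold changes of 0.54 in the GFP-positive, -0.39 in the GFP-negative and -0.26 in the RA library. mt-Nd6 had -0.23, -0.73 and 0.26. Both rest on few UMIs (26, 17 and 22 for Ndufa4l2 and 37, 6 and 23 for mt-Nd6 in cardiomyocyte-like cells), and the difference between libraries was not tested.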

How the results depend on the processing

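Members called higher numbered 90 to 91 against endothelial-like and 91 to 92 against fibroblast-like cells when each library was left out in turn, and members called lower 0 and 1 to 2. The lone lower member without the RA library was Ndufa4l2. No called edgeR result changed sign under an alternative. Of the values that answer a comparison 243 stayed within their limits and 56 moved, all given here; the cause was not tested. Listed as GFP-positive, then GFP-negative, then RA, the mitochondrial share of cardiomyocyte-like cells was 12.1%, 8.38% and 7.53% with a gate 2 times as strict, 12.8%, 10.2% and 9.85% with no mitochondrial limit, 12.5%, 8.49% and 8.17% after thinning to 2000 UMIs, and 12.1%, 10.9% and 10.5% without barcodes under 1% mitochondrial UMIs, a setting added after seeing the data. The nuclear member level was 107666, 102627 and 105353 with the strict gate and 95035, 96587 and 99381 CPM of all UMIs. It was 108906 and 107522 after thinning in the sorted libraries, 107170 with no mitochondrial limit in the RA library, and 104129 and 107193 without the low barcodes in the GFP-negative and RA library. The Cox6a2 share there was 75.3% and 79.7% after thinning and 67.4% and 67.6% without those barcodes. Counts of nuclear members past the fold moved as follows. For GFP-positive over RA they were 2 higher after thinning, 1 lower without the low barcodes and 0 lower at a minimum of 100 UMIs. For GFP-positive over GFP-negative they were 1 lower after thinning and 0 lower at 100 UMIs. For GFP-negative over RA they were 1 lower with the strict gate and 2 lower after thinning. For His-bundle-like cells they were 2 higher and 1 lower after thinning and 1 higher with the subtype minimum doubled. For Nppa-gated cells they were 3 higher and 1 lower after thinning, and for Tbx18/Isl1-gated cells 9 higher with the subtype minimum doubled. Counts of mitochondrially encoded members past the fold moved too. For GFP-positive over RA (8 higher, 1 lower) they were 1 and 2 with no mitochondrial limit, 0 and 2 without the low barcodes, and 0 lower after thinning and at 100 UMIs. For GFP-positive over GFP-negative (3 higher) they were 1 with no mitochondrial limit, 6 after thinning and 0 without the low barcodes, and for GFP-negative over RA (2 lower) 1 at 100 UMIs. For Nppa-gated cells (1 higher) they were 0 higher and 1 lower after thinning, and for Tbx18/Isl1-gated cells (1 higher) 2 with no mitochondrial limit, 2 after thinning and 4 with the subtype minimum doubled. No paired analysis was possible between libraries because each group had 1 library; class contrasts had the library as a block. Members with few UMIs (Cox4i2, Cox6b2, Ndufa4l2, Cox7b2, mt-Nd6) are limited by depth.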
